A study of Mus musculus with 6 samples.

Results

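A set of 10 receptor chains for interferons and interleukins was examined in RNA-seq of the corneal epithelium: *Ifngr1*, *Ifngr2*, *Il13ra1*, *Il4ra*, *Il10rb*, *Il17ra*, *Il17rc*, *Il20rb*, *Il22ra1* and *Ifnar1*. They are 10 of the 17554 genes in the deposited table and were chosen by name, with the mutant and control values of the same samples already known, and no threshold was set. The difference between genotypes in the 10 genes is therefore given as a description, with its error and without a p-value, and the counts of these genes past a threshold are descriptions too. The set was proposed as interferon gamma (IFN-γ) and type 2 cytokine receptors, but this name covers only part of it: *Ifngr1* and *Ifngr2* encode the IFN-γ receptor, *Il4ra* and *Il13ra1* encode the receptor for the type 2 cytokines IL-4 and IL-13, and the other 6 encode chains of IL-10 family, IL-17 and type I interferon receptors. All 10 carried the annotation cytokine-cytokine receptor interaction in the table, and 8 had the fibronectin type III annotation and were placed in the Jak-STAT pathway. *Il17ra* and *Il17rc* had a SEFIR domain and were placed in the IL-17 pathway, and *Il17ra* was also annotated with a fibronectin-III-like domain of IL-17 receptors.

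The samples were bulk RNA from the separated corneal epithelium of C57BL/6 mice at 2 months of age, 3 from control mice (genotype label WT, with their alleles not given further) and 3 from *Krt14-Cre; Rela f/f* mice (genotype label Rela-/-), called mutant here. *Rela* encodes a subunit of canonical NF-κB. It was deleted where the *Krt14* promoter drives or once drove Cre, which covers the corneal, limbal and conjunctival epithelium as well as the skin. The comparison asks how the epithelial transcriptome changes when canonical NF-κB is lost. Libraries held 19492942 to 19733834 expected counts, and their number, 3 per group, limits the precision.

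Receptors of these families work as pairs. One chain binds the ligand and a partner chain completes the signaling complex, and Janus kinases bound to the chains then phosphorylate STAT proteins, such as STAT6 for IL-4 and IL-13 and STAT3 for IL-22 and its relatives. IL-17 receptors instead recruit an adaptor through their SEFIR domains and activate NF-κB. In surface epithelia, the cornea included, IFN-γ, IL-17A and IL-22 come mostly from lymphocytes, while their receptors are carried by the epithelial cells themselves.

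The promoters of the IFN-γ and IL-4/IL-13 receptor chains are shown as a description, and whether they bear on the transcript levels was not tested. Each line gives the 110 bases before the transcription start, 5′ to 3′ on the gene's strand (all 4 on the plus strand), from RefSeq on GRCm38.p6, and capitals mark motif matches.
Ifngr1, chr10:19591839-19591948: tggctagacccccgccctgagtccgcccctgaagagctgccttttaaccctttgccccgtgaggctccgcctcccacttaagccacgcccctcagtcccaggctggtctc
Ifngr2, chr16:91546949-91547058: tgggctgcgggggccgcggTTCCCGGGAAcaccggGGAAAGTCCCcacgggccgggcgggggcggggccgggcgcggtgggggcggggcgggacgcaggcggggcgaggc
Il13ra1, chrX:36111998-36112107: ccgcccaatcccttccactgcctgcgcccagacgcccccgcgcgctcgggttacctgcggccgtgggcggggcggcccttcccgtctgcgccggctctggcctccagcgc
Il4ra, chr7:125552161-125552270: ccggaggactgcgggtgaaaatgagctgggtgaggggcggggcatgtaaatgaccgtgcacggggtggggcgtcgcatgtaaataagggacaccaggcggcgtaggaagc

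A set of 4 motifs was searched on both strands of the window from 250 bases before to 50 bases after the start, which was held for 8 of the 10 genes. The κB motif, the binding sequence of NF-κB, matched in 2 of the 8 and in 4.51% of all 32851 promoters. One match lay in *Ifngr2*, at positions -75 to -66 (the second run of capitals above), and the other in *Il4ra*, at positions 20 to 29 after the start and so outside the printed stretch. The STAT6-type motif (TTC and GAA separated by 4 bases) matched in *Ifngr2* alone of the 8, at -91 to -82 (the first run of capitals), against 6.95% of all promoters. The GAS motif TTCNNNGAA matched in *Ifnar1* alone, at -5 to 3, against 8.30% of all promoters. The interferon-stimulated response element, searched as a pair of GAAA separated by 2 bases and present in 3.44% of promoters, matched in 0 of the 8. Neither *Ifngr1* nor *Il13ra1* held a match of any of the 4 motifs in this window. Sequence outside the window was not searched, and binding to any match was not tested. GC content was above the median of all promoters, 52.7%, in 7 of the 8, from 58.7% in *Il17rc* to 74.3% in *Ifngr2*, and was 52.0% in *Il20rb*.

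*Rela* itself was low in every mutant sample. It stood at 36.47, 34.71 and 33.43 FPKM (fragments per kilobase of transcript and per library total, a level per transcript length) in controls 1 to 3 and at 4.93, 5.53 and 5.72 FPKM in mutants 1 to 3, a log2 fold change of -2.75 (SE 0.085; adjusted p = 5.5e-07, edgeR quasi-likelihood test with Benjamini-Hochberg adjustment). The corneal epithelial markers *Krt12*, *Krt5*, *Pax6* and *Cdh1* did not pass the threshold, and *Aldh3a1* was lower (log2 fold change -0.25, adjusted p = 0.047, edgeR). For *Krt12* the log2 fold change was -0.15 (95% interval -0.33 to 0.03). The study itself reports less K12 mRNA and protein in mutants at this age, with atrophy of basal cells in the central cornea. K14 staining was reported there as unaffected in young mutants. *Krt14* was higher, at 178 ± 26.7 FPKM in controls and 1753 ± 394 FPKM in mutants (SD, n = 3 each). Its log2 fold change was 3.32 (SE 0.18; adjusted p = 1.1e-05, edgeR). Of 17 leukocyte markers, 16 were in the table, with a summed level of 84.8 to 94.1 FPKM in controls and 76.3 to 124 FPKM in mutants. This sum came mostly from *Itgam* and *Cd68*, and the pan-leukocyte gene *Ptprc* was at 0.01 to 0.15 FPKM in every sample. Keratocyte markers summed to 0.09 to 0.22 FPKM in controls and 0.50 to 3.08 FPKM in mutants, and 4 endothelial markers to 0.03 to 0.12 and 0.14 to 0.24 FPKM. *Dcn*, the only keratocyte marker tested, had 1 to 3 counts in controls and 14 to 66 in mutants. It passed the filter through its mutant counts and was called higher (adjusted p = 0.0051, edgeR). *Kera*, another keratocyte marker, had 1 to 2 counts in controls and 0 to 2 in mutants. Conjunctival markers summed to 1362 to 1595 FPKM in controls and 1074 to 1191 FPKM in mutants. Of these, *Krt13* was lower (1329 ± 120 against 1004 ± 61.6 FPKM, SD, n = 3 each; adjusted p = 0.015, edgeR), while *Krt4* (92.1 ± 24.1 against 45.6 ± 23.7 FPKM) and *Krt19* did not pass. The part of other cell types in the receptor levels was not tested. In bulk RNA, a change in the number of cells of a type cannot be told apart from a change in RNA per cell. Mutant 1 stood apart from mutants 2 and 3 on the second principal component, which held 11.6% of the variance.

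All 10 receptor genes passed the filter on low counts, and the lowest count of any of them in any sample was 73.9, in *Il22ra1*. At an adjusted p under 0.05, 4 were higher in mutants (*Ifngr1*, *Il13ra1*, *Il4ra*, *Il22ra1*), 1 was lower (*Il20rb*) and 5 did not pass. Over all 12667 genes tested, 13.2% passed, 7.82% as higher and 5.42% as lower. Nothing is read from the set's count against this background, since the set was drawn up from the same comparison. At an adjusted p of at most 0.001 with a fold change of at least 2, which 1.37% of genes passed, *Ifngr1* and *Il13ra1* remained. Sample ranges did not overlap in 6 of the 10, with mutants above in 5 and below in 1, and over all genes in 17.5% with mutants above and 15.2% with mutants below. The median log2 fold change of the 10 was 0.19, beside -0.0028 over all genes tested.

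**Figure D1:**
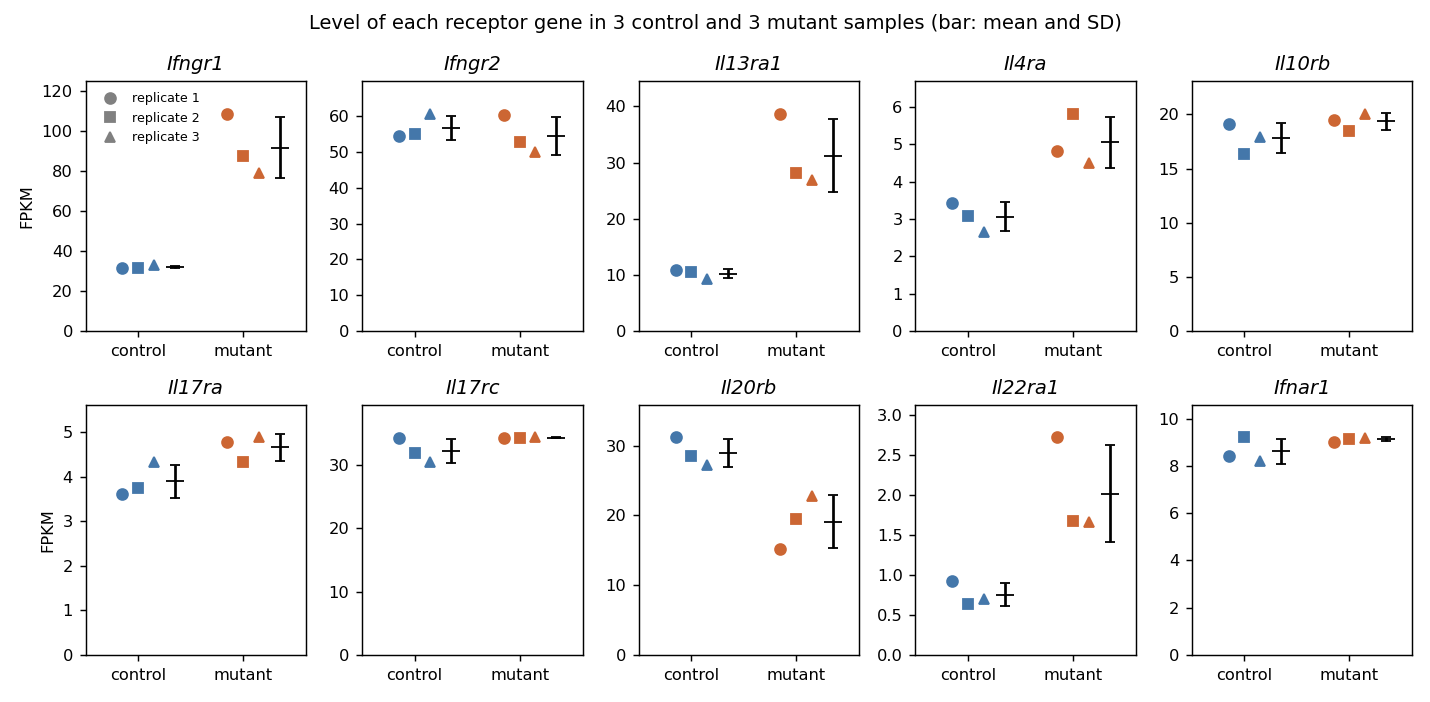
Level of each receptor gene (FPKM, axis from 0) in 3 control (blue) and 3 mutant (orange) samples, marked by replicate number, with mean and SD as black bars. Mutants lie clear of controls in *Ifngr1*, *Il13ra1*, *Il4ra*, *Il22ra1* and *Il20rb*; mutant 1 is the highest sample in *Ifngr1*, *Il13ra1* and *Il22ra1* and the lowest in *Il20rb*.

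The 2 chains of the IFN-γ receptor moved differently. *Ifngr1* (gene ID 15979, chr10:19591958-19610225, GRCm38), the ligand-binding chain, was at 31.56, 31.72 and 32.81 FPKM in controls and at 108.46, 87.43 and 78.73 FPKM in mutants. The controls were nearly level, and the lowest mutant was far above the highest control. Its mean was 32.0 ± 0.68 (SD, n = 3) against 91.5 ± 15.3 FPKM (n = 3), and the log2 fold change was 1.51 (SE 0.12, 95% interval 1.25 to 1.78), or 2.85-fold.

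*Ifngr2* (gene ID 15980, chr16:91547091-91564007), the partner chain that brings JAK2 to the complex, was at 54.37, 54.95 and 60.65 FPKM in controls and at 60.34, 52.69 and 50.10 FPKM in mutants. The groups overlapped, with control 3 and mutant 1 as the highest samples. The log2 fold change was -0.06 (SE 0.10), and its 95% interval, -0.28 to 0.15, spanned 0.825- to 1.11-fold. In controls *Ifngr1* was thus the scarcer transcript of the pair on the FPKM scale, and in every mutant sample it was the more abundant.

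Both chains of the type II IL-4 receptor were higher in mutants, *Il13ra1* by more than *Il4ra*. *Il13ra1* (gene ID 16164, on chromosome X), which binds IL-13 and pairs with IL-4Rα, was at 10.83, 10.56 and 9.29 FPKM in controls and at 38.69, 28.21 and 26.81 FPKM in mutants. All 3 mutants were far above the controls, with mutant 1 the highest. The mean was 10.2 ± 0.82 against 31.2 ± 6.49 FPKM (SD, n = 3 each), a log2 fold change of 1.61 (SE 0.14, 95% interval 1.29 to 1.93), or 3.05-fold, the largest among the 10.

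*Il4ra* (gene ID 16190, on chromosome 7), the chain that binds IL-4 and docks STAT6, was at 3.44, 3.09 and 2.66 FPKM in controls and at 4.83, 5.82 and 4.50 FPKM in mutants. The groups did not overlap, and here mutant 2 rather than mutant 1 was the highest. The log2 fold change was 0.70 (SE 0.13, 95% interval 0.41 to 0.99), or 1.63-fold. An antisense gene overlapped 9.51% of its exon bases, and with the strand setting of the counting not given in the sources used here, the share of its reads cannot be told apart. The other chains that can join IL-4Rα or bind IL-13 were near the limit of detection: *Il2rg*, the common gamma chain, lay at 0.26 to 0.43 FPKM, and *Il13ra2*, the decoy receptor, was listed at 0 in all controls and in 2 of 3 mutants. Both fell below the filter and were not tested.

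Among the chains for IL-10 family cytokines, *Il22ra1* was higher in mutants, *Il20rb* was lower, and *Il10rb* showed neither. *Il22ra1* (gene ID 230828, on chromosome 4), the ligand-binding chain for IL-22, was at 0.92, 0.64 and 0.70 FPKM in controls and at 2.72, 1.67 and 1.66 FPKM in mutants. The mutants lay above the controls, and mutant 1 stood apart from the other mutants. It was the least abundant of the 10 genes in both groups, and its log2 fold change of 1.42 (2.68-fold) had the widest error of the set (SE 0.23, 95% interval 0.91 to 1.93).

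*Il20rb* (gene ID 213208, on chromosome 9), the shared chain of the receptors for IL-19, IL-20 and IL-24, was at 31.19, 28.45 and 27.29 FPKM in controls and at 15.18, 19.43 and 22.74 FPKM in mutants. Every mutant was below every control, and mutant 1 was the lowest. The log2 fold change was -0.60 (SE 0.13, 95% interval -0.89 to -0.32), or 0.658-fold. Without control 1 it was -0.56 and no longer passed the threshold. Its partner *Il20ra*, the other chain of the type I IL-20 receptor, was at 3.94, 5.50 and 4.98 FPKM in controls and at 10.34, 7.88 and 6.57 FPKM in mutants, a log2 fold change of 0.80 (SE 0.18; adjusted p = 0.018, edgeR quasi-likelihood test), a call lost without control 1 or control 2.

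*Il10rb* (gene ID 16155, chr16:91406235-91425834), the accessory chain shared by the receptors for IL-10, IL-22 and IFN-λ, was at 19.12, 16.37 and 17.91 FPKM in controls and at 19.50, 18.47 and 20.06 FPKM in mutants. The groups overlapped, and the 95% interval of its log2 fold change, 0.12 (SE 0.083), ran from -0.07 to 0.30. A readthrough gene overlapped 14.9% of its exon bases, and reads from the overlap cannot be assigned to 1 of the genes with certainty. The ligand-binding chain for IL-10, *Il10ra*, was at 0.03 to 0.10 FPKM and not tested, and that for IFN-λ, *Ifnlr1*, was at 10.82 to 11.78 FPKM in controls and 9.40 to 12.26 FPKM in mutants, with a log2 fold change of -0.02 (SE 0.11; adjusted p = 0.92, edgeR quasi-likelihood test).

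Neither IL-17 receptor chain passed the threshold. *Il17ra*, the chain common to IL-17 family receptors (on chromosome 6), was at 3.62, 3.75 and 4.32 FPKM in controls and at 4.77, 4.32 and 4.88 FPKM in mutants, so that the ranges met at control 3 and mutant 2. Its log2 fold change was 0.25 (SE 0.11, 95% interval 0.01 to 0.49). *Il17rc*, its partner for IL-17A and IL-17F (gene ID 171095, chr6:113471455-113493338), was at 34.18, 31.89 and 30.44 FPKM in controls and at 34.28, 34.19 and 34.31 FPKM in mutants. The mutants lay above the controls by only 0.01 FPKM between the nearest samples, and the log2 fold change was 0.11 (SE 0.071, 95% interval -0.05 to 0.26).

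*Ifnar1*, a chain of the type I interferon receptor that binds TYK2 (gene ID 15975, chr16:91450016-91510523), was at 8.44, 9.21 and 8.20 FPKM in controls and at 9.03, 9.16 and 9.20 FPKM in mutants. The groups overlapped, and its log2 fold change of 0.04 had a 95% interval of -0.12 to 0.21, the smallest difference of the set in size. Its partner *Ifnar2* was at 6.19 to 7.92 FPKM in controls and 7.67 to 9.24 FPKM in mutants (log2 fold change 0.25, SE 0.14; adjusted p = 0.26, edgeR quasi-likelihood test).

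**Figure D2:**
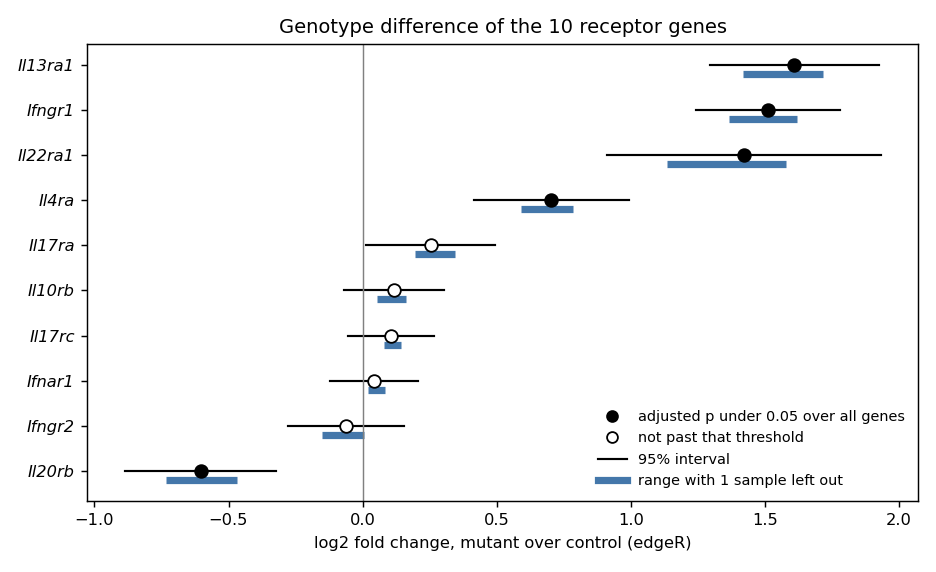
Log2 fold change of mutant over control (x axis) for each receptor gene (y axis): points are the edgeR estimates, filled where the adjusted p over all genes was under 0.05, thin lines the 95% intervals and thick blue lines the range when 1 sample was left out. *Il13ra1*, *Ifngr1* and *Il22ra1* lie from 1.42 to 1.61, *Il4ra* at 0.70, and *Il20rb* at -0.60.

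The genotypes also differed in the order of the levels. In controls, mean FPKM spanned 75.2-fold. *Ifngr2* was the most abundant of the 10, followed by *Il17rc* and *Ifngr1*, whose ranges overlapped. Then came *Il20rb*, *Il10rb*, *Il13ra1*, *Ifnar1*, *Il17ra*, *Il4ra* and *Il22ra1*, each neighbour after *Ifngr1* separate from the next. The ranges of *Il20rb* and *Il17rc*, which are not neighbours in this order, overlapped (27.29 to 31.19 against 30.44 to 34.18 FPKM). In mutants, *Ifngr1* came first and *Ifngr2* second, *Il13ra1* had reached the level of *Il17rc* (26.81 to 38.69 against 34.19 to 34.31 FPKM), and *Il20rb* overlapped *Il10rb*. *Il4ra* and *Il17ra* overlapped as well, and *Il22ra1* remained last.

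Ratios of partner chains within a sample do not depend on the scaling between libraries. The log2 ratio of *Ifngr1* to *Ifngr2* FPKM was -0.79, -0.79 and -0.89 in controls and 0.85, 0.73 and 0.65 in mutants. It crossed 0 between the groups in every sample, from 0.566 to 1.67 *Ifngr1* per *Ifngr2* on the linear scale. The log2 ratio of *Il4ra* to *Il13ra1* was -1.66, -1.77 and -1.80 in controls and -3.00, -2.28 and -2.58 in mutants. *Il13ra1* thus exceeded *Il4ra* by 3.35 times in controls and by 6.14 times in mutants, with mutant 1 the most uneven. For *Il22ra1* over *Il10rb*, the pair that forms the IL-22 receptor, the mean log2 ratio was -4.58 ± 0.17 in controls and -3.30 ± 0.40 in mutants (SD, n = 3 each). For *Il22ra1* over *Il20rb*, the type II receptor of IL-20 and IL-24, it was -5.28 ± 0.20 and -3.27 ± 0.69. *Il22ra1* remained the scarcer transcript of both pairs in every sample, and its ratio to both was higher in every mutant than in every control. The ratios of *Il17ra* to *Il17rc* (mean -3.05 and -2.88) and of *Ifnar1* to *Ifnar2* (mean 0.25 and 0.14) overlapped between the groups.

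**Figure D3:**
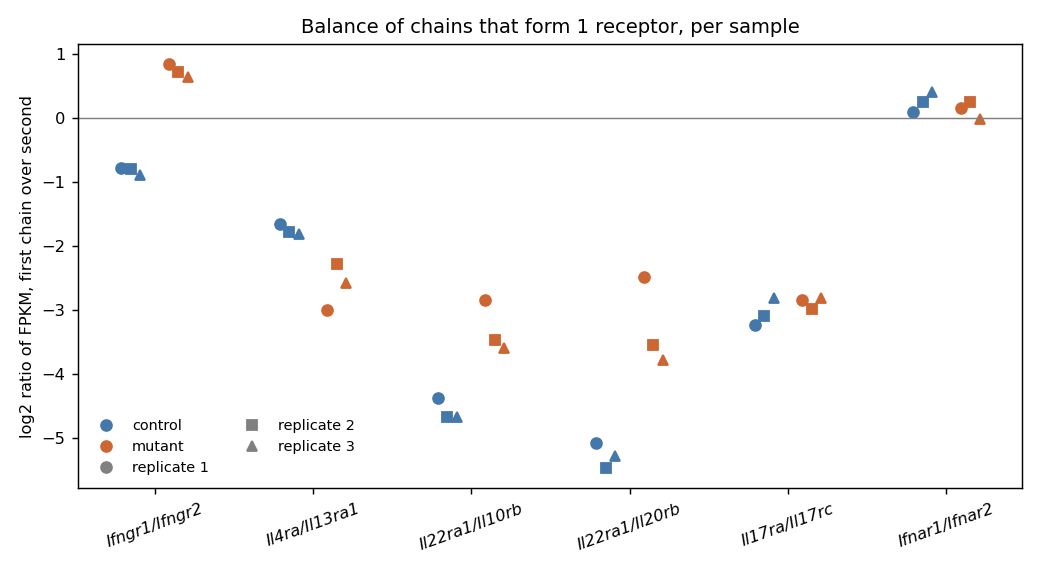
Log2 ratio of FPKM of the first chain over the second (y axis) for 6 pairs that form a receptor (x axis), 1 point per sample, controls in blue and mutants in orange. The *Ifngr1/Ifngr2* ratio is below 0 in all controls and above 0 in all mutants, while the *Il17ra/Il17rc* and *Ifnar1/Ifnar2* ratios overlap.

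Several of these genes are neighbours. *Ifnar2*, *Il10rb*, *Ifnar1* and *Ifngr2* lie within 191 kb of chromosome 16, all on the plus strand, and none of the 4 passed the threshold. By the deposited coordinates *Ifnar2* (chr16:91372783-91426065) spans the whole of *Il10rb*, and how reads were divided between the 2 genes was not tested. *Il17rc* begins 696 bases after the end of *Il17re*. The 5 receptor genes that passed lie on 5 chromosomes, 10, X, 7, 4 and 9.

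The rest of the pathway was followed through 8 lists of 148 gene names: other receptor chains, ligands, kinases with STATs and adaptors, feedback inhibitors, and 4 lists of target genes. Of these, 88 were tested and 26 passed at an adjusted p under 0.05 (edgeR quasi-likelihood test, adjusted over all genes tested), 22 as higher and 4 as lower, against 13.2% of all genes tested (7.82% higher, 5.42% lower). The number of list genes that passed was 15 without control 1, 14 without control 2 and 15 without control 3. The counts of the single lists are small and are given as descriptions beside these shares.

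Of 17 other receptor chains, 11 were tested, 3 were higher and none lower, with a median log2 fold change of -0.02. Beside *Il20ra* these were *Il17rd*, a SEFIR protein that modulates IL-17 signaling (0.25 ± 0.046 against 0.45 ± 0.020 FPKM; adjusted p = 0.023), and *Osmr*, the oncostatin M and IL-31 receptor chain (35.1 ± 1.98 against 44.9 ± 4.82 FPKM; adjusted p = 0.024, SD, n = 3 each, edgeR). *Osmr* lost its call without control 1, 2 or 3 or mutant 2 or 3, and *Il17rd* without control 1, control 3 or mutant 2 and in limma on log2 FPKM at both pseudocounts.

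Of 24 ligands, 13 were in the table and only 2 passed the filter, both of them epithelial alarmins that promote type 2 immunity and both higher. *Tslp* was at 0.46 FPKM in each control and at 1.89, 1.28 and 2.36 FPKM in mutants, a log2 fold change of 1.99 (SE 0.31; adjusted p = 0.003, edgeR). *Il33* was at 1.45 to 2.14 FPKM in controls and 2.86 to 6.45 FPKM in mutants (log2 fold change 1.22, SE 0.28; adjusted p = 0.021, edgeR), a call lost without control 1, 2 or 3. Among the ligands below the filter, 2 are named here after their values were seen. *Il24*, a ligand of the receptors formed by *Il20rb* and *Il22ra1*, was listed at 0 in all controls and at 2.34, 0.23 and 2.45 FPKM in mutants (5 to 53 counts). *Il10* was likewise listed at 0 in all controls and had 3 to 8 counts in mutants. *Il17c*, an epithelial member of the IL-17 family, was at 0.97, 0.33 and 0.33 FPKM in controls (4 to 12 counts) and at 0.08, 0 and 0.08 FPKM in mutants (0 to 1 counts). IFN-γ (*Ifng*), IL-4 (*Il4*), IL-13 (*Il13*) and IL-22 (*Il22*) were not analysed here.

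Of 14 kinases, STATs and adaptors tested, 1 was higher and none lower (7.14%, against 13.2% of all genes), with a median log2 fold change of 0.02. The gene was *Stat3*, at 43.80, 48.17 and 42.83 FPKM in controls and 58.40, 60.33 and 63.12 FPKM in mutants (log2 fold change 0.43, SE 0.073; adjusted p = 0.0045, edgeR). STAT3 acts below the IL-22, IL-6 and oncostatin M receptors. *Stat6* (log2 fold change 0.13, 95% interval -0.01 to 0.28), *Jak1* (-0.05, -0.21 to 0.11), *Jak2* (0.06, -0.10 to 0.22) and *Tyk2* (-0.18, -0.33 to -0.02) did not pass.

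Feedback inhibitors of the same receptors were higher in 5 of 12 tested genes and lower in none, with a median log2 fold change of 0.14. *Socs3*, which blocks signaling through STAT3-coupled receptors, was at 0.37, 0.19 and 0.24 FPKM in controls and at 29.69, 25.19 and 20.18 FPKM in mutants. Its log2 fold change was 6.54 (SE 0.23; adjusted p = 1.0e-06, edgeR), or 93.0-fold. *Socs1*, the inhibitor of IFN-γ receptor signaling, rose from 1.57 ± 0.18 to 2.90 ± 0.24 FPKM (SD, n = 3 each; adjusted p = 0.014, edgeR), a call lost without control 1 or 2. *Socs2* (log2 fold change 1.46), *Cish* (0.47) and *Pias1* (0.26) passed with adjusted p-values of 0.017, 0.026 and 0.034 in edgeR. *Socs2* lost its call without control 2 or 3, *Cish* without control 2, control 3 or mutant 2, and *Pias1* without control 1, 2 or 3 or mutant 2 or 3.

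Among IFN-γ targets, 1 of 17 tested genes was higher and none lower (5.88%, against 13.2% of all genes), with a median log2 fold change of 0.10: *Nlrc5*, the activator of MHC class I genes, which was at 0.04 to 0.05 FPKM in controls and 0.13 to 0.15 FPKM in mutants (log2 fold change 1.66, SE 0.32; adjusted p = 0.0093, edgeR). Its counts were 5 to 7 in controls and 19 to 21 in mutants, so it passed the filter through its mutant counts. With at least 10 counts required in every sample, 0 of the IFN-γ targets passed. *Nlrc5* also did not pass without control 2 or in limma on log2 FPKM. Among IL-4 and IL-13 targets, 1 of 7 tested was higher and none lower (14.3%), with a median of 0.15. It was *Serpinb2*, a serine protease inhibitor, at 0.33, 0.10 and 0.15 FPKM in controls and 5.73, 2.14 and 2.31 FPKM in mutants (log2 fold change 4.07, SE 0.52; adjusted p = 0.001, edgeR). Its log2 fold change was 4.66 without control 1 and 3.46 without mutant 1. *Serpinb2* had 4 to 13 counts in controls and 83 to 220 in mutants. It was left out when at least 10 counts were required in every sample, and then 0 genes of this list passed.

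IL-17 and IL-22 targets were higher in 8 of 11 tested genes and lower in none, with a median log2 fold change of 2.91. Without control 1, 5 passed, and with at least 10 counts required in every sample, 3. *S100a8*, *Saa3*, *Lcn2*, *Csf3* and *Cxcl1* had at most 7 counts in any control and passed the filter through their mutant counts. The count and the median of this list therefore depend on the filter. *S100a9*, a subunit of the antimicrobial protein calprotectin, was at 2.98, 3.42 and 6.51 FPKM in controls and at 1400.66, 273.39 and 201.32 FPKM in mutants (log2 fold change 7.18, SE 0.88; adjusted p = 8e-04, edgeR), and its log2 fold change without mutant 1 was 5.77. Its partner *S100a8* had at most 2 counts in any control and 228 to 1858 in mutants, at least 271-fold higher against a floor of 3 counts per library (adjusted p = 0.0023, edgeR), and the acute phase gene *Saa3* had 0 counts in controls and 20 to 127 in mutants, at least 20.7-fold higher against the same floor (adjusted p = 0.0089, edgeR). *Csf3*, the granulocyte growth factor G-CSF, was at 0.11 to 0.27 FPKM in controls and 0.80 to 2.82 FPKM in mutants (adjusted p = 0.0048, edgeR). Mutant 1 was the highest sample in all 4 of these genes, as in *Ifngr1*, *Il13ra1* and *Il22ra1*, and without it the bounds were 96.2-fold for *S100a8* and 9.83-fold for *Saa3*. *Ly6g*, a marker of neutrophils, which are rich in both S100 proteins, was at 2.21 to 4.12 FPKM in controls and 1.81 to 2.03 FPKM in mutants and did not pass the threshold. The myeloid marker *Lyz2* was at 0, 0 and 0.05 FPKM in controls and at 1.17, 0.64 and 0.19 FPKM in mutants, below the filter, and *Itgam* was at 63.85 to 67.15 FPKM in controls and at 94.77, 64.42 and 50.97 FPKM in mutants. The part of myeloid cells in these values was not tested. *Zc3h12a*, an RNase that restrains IL-17 responses, was also higher (14.8 ± 1.38 against 29.3 ± 2.21 FPKM, SD, n = 3 each; adjusted p = 3.1e-04, edgeR).

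Type I interferon targets went the other way in part: of 14 tested, 1 was higher (*Ifit2*, log2 fold change 0.90, SE 0.22; adjusted p = 0.026, edgeR) and 4 were lower, with a median of -0.05. *Isg15*, a ubiquitin-like protein, was at 14.89, 17.11 and 21.53 FPKM in controls and at 10.27, 9.69 and 12.35 FPKM in mutants (log2 fold change -0.74, SE 0.16; adjusted p = 0.017, edgeR). *Irf7* (-0.47), *Ddx58* (-0.29) and the antiviral gene *Rsad2* (-2.44) had adjusted p-values of 0.042, 0.039 and 0.041 in edgeR. *Rsad2* rested on few counts, 10 to 68 in controls and 4 to 11 in mutants, and its log2 fold change without control 1 was -1.66. In limma on log2 FPKM, at both pseudocounts, *Irf7*, *Ddx58* and *Rsad2* did not pass. Each of the 5 calls was also lost without at least 1 library: *Ifit2* and *Isg15* without control 2, control 3 or mutant 2 (*Ifit2* also without mutant 3), *Irf7* without control 1, 2 or 3 or mutant 2, *Ddx58* without control 1, control 3, mutant 2 or mutant 3, and *Rsad2* without control 1, control 3, mutant 1 or mutant 2.

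**Figure D4:**
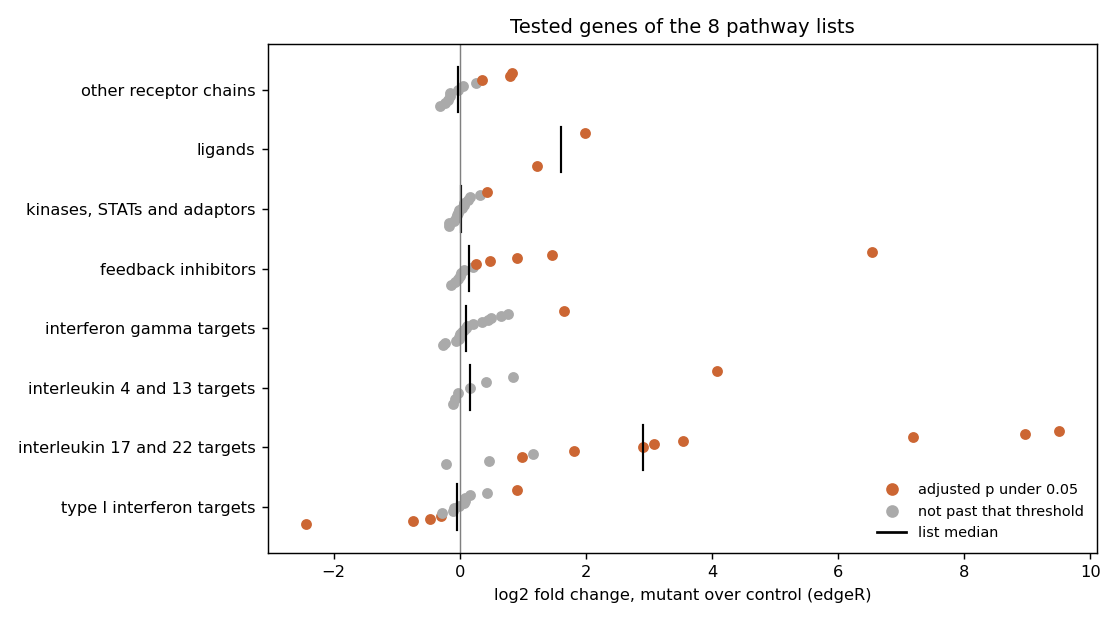
Log2 fold change of mutant over control (x axis) of the tested genes of the 8 pathway lists (y axis), 1 point per gene, orange where the adjusted p over all genes was under 0.05, with the list median as a black line. Genes that passed are all on the higher side except 4 type I interferon targets, and the IL-17 and IL-22 targets have the highest median with 11 genes tested, 2.91. That median includes genes with at most 7 counts in any control, which passed the filter through their mutant counts.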

How the data were processed

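RNA-seq of corneal epithelium from 3 control and 3 *Krt14-Cre; Rela f/f* mice was analysed from 1 deposited table of all genes. The authors filtered reads, aligned them with Bowtie2 2.2.5 and estimated gene levels with RSEM 1.2.12, per the labels. The deposited expected counts are RSEM estimates, of which 31.5% to 32.2% per sample were not whole, and they were rounded here. The deposited expression columns were taken as FPKM from their values. Columns of the authors' means and of their own comparison (fold change, p and q) were not used. The labels name mm9, while the table's coordinates carry GRCm38 accessions and are printed as such. The labels name a TruSeq kit, and the study's methods another sequencer and rRNA removal; the strand setting is not given in the sources used here.

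Genes were tested with edgeR 4.0.16 (R 4.3.3, TMM scaling, filterByExpr with a count minimum of 10 and a total of 15, genotype only, quasi-likelihood), with Benjamini-Hochberg adjustment over 12667 of 17554 genes; SEs were derived from the F statistic and the fold change. A second threshold, from the study's methods, required a change of at least 2-fold with an adjusted p no higher than 0.001. The tests were checked on simulated data. Alternatives were DESeq2 1.42.0, limma 3.58.1 on log2(FPKM + 1) and log2(FPKM + 0.1), the replicate number as a block, leaving out each sample, scaling by the upper quartile, and either no filter or a minimum of 10 counts required in all samples. A floor of 3 counts corresponded to 0.152 to 0.154 CPM (counts scaled to the library total) and covers counting error only. Nothing in the labels states that samples came from separate litters or days, so the spread may be partly technical. No 2 samples of a group agreed within sampling noise.

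Named genes were the 10 receptor genes, *Rela*, their partner chains, 6 kinases and STATs (1 of them not reported here), and up to 5 genes of each list with the smallest adjusted p under 0.05; *Il24*, *Il17c* and the marker genes are named beyond this rule. The members and all gene lists were chosen with earlier results of these data known. Promoters came from RefSeq (GRCm38.p6) and matched 8 of 10 genes by symbol and gene ID; *Il10rb* and *Il17ra* had none. Exon overlap came from GENCODE M21.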

Additional observations from a re-analysis of the deposited data

How the results depend on the processing

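With 3 samples per group, the number of genes called depended on the controls: 1678 genes passed in all 6 samples, and 857 to 1869 when 1 sample was left out (857 without control 2, where 67.0% of calls were higher, and 999 without control 3, 67.3%, against 59.1% in all samples). At an adjusted p of at most 0.001 with a fold change of at least 2, 173 genes passed, 96.0% of them higher, as did 2 of the receptor genes and 2 genes of the 8 lists (*Socs3* and *S100a9*). Leaving out 1 sample gave 4 to 5 receptor genes and 14 to 28 list genes, with 15 each without control 1 and control 3; *Il20rb* was the receptor gene lost, without control 1. The 5 receptor genes called were also the 5 called with DESeq2, limma at either pseudocount, upper-quartile scaling and either other filter. The log2 fold change changed sign in 2 genes that were not called: *Ifngr2* (-0.15 to 0.0039 with 1 sample left out, above 0 without control 3 or mutant 3) and *Ifnlr1* (-0.11 to 0.0921, above 0 without the same samples). Of 527 alternative values for 41 named genes, 465 kept their direction and side of the threshold and 58 kept the direction but lost the call. The partner ratios kept their direction in CPM and with any sample left out. Same-numbered samples did not deviate together (correlations 0.019, 0.0483 and -0.0464), so the number was not taken as pairing; with the replicate block 1419 genes, the same 5 receptor genes and 25 list genes passed, and *Ddx58* and *Pias1* did not. Genes with few counts, such as *Rsad2* and *Nlrc5*, are limited by depth.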
